A study of Rattus norvegicus with 4 samples.

Results

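The genes of the mitogen-activated protein (MAP) kinase cascade were examined in NR8383 cells, a line of rat alveolar macrophages established from a lung lavage, after contact with carbon nanotubes. Members were all rat RefSeq symbols made of Mapk, Map2k, Map3k, Map4k or Mapkapk and a number, with or without the ending ip and a number. A matched array probe measured 43 of them, out of 16579 genes measured in all, and 7 further symbols of this form (Map3k10, Map3k15, Map3k19, Map3k20, Map4k2 and Mapk8ip2 among them) had no matched probe. The 4 samples form 1 group, biological replicates per the series design: NR8383 cells after 20 passages, given COOH-functionalized carbon nanotubes (the material NRCWE042) for 4 h at 6.8 cm2 of nanotube surface per cm2 of culture. The cells are a line kept in culture, not fresh lung macrophages, and the labels name no altered gene. Unexposed cells belong to the design and were not analysed here, so no value below is an effect of the nanotubes. The data give which cascade genes the exposed cells expressed and how far the 4 cultures differed.

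The cascade passes a signal down tiers of kinases, each activating the next by phosphorylation. MAP4 kinases and small GTPases act on MAP3 kinases, these on MAP2 kinases, and these on the MAP kinases ERK, JNK and p38, which phosphorylate transcription factors and further kinases such as the MAPKAP kinases. In macrophages the pathway is known for carrying signals from pattern recognition and cytokine receptors to genes such as those of TNF and interleukin-1. Its activity is set by phosphorylation, which mRNA levels do not show.

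Arrays carried 1 colour. The level of a gene is the log2 processed signal of its brightest probe minus the array's 75th percentile, given as mean ± SD over n = 4 arrays or as the values on replicates 1 to 4 in that order. Levels of different genes are not comparable, since each probe has its own brightness. A gene was called detected on an array where the scanner software marked at least 1 of its probes as well above background on over 50% of the probe's spots. The 75th percentile of the signal lay between 307 and 757, lowest on replicate 4, where 31.1% of probes were well above background against 35.3 to 38.8% on the others. The spike-in signal of replicate 4 differed from that of replicate 1 by only -0.09 log2 units, while its 75th percentile differed by -1.26. An area of low signal in the middle of replicate 3 held 3.75% of spots, among them spots of the brightest probe of 2 members, Mapk4 and Mapk8ip1, neither of them detected. Of 12 macrophage markers 10 were detected on all 4 arrays, with Cd68 at 7.47 ± 0.24 and Pparg at 6.11 ± 0.07, while Marco and Adgre1 were detected on none. Markers of other cell types were detected in 1 of 10 cases for lung epithelium (Foxj1), 1 of 7 for fibroblasts (Dcn), 3 of 5 for endothelium (Cdh5, Pecam1 and Vwf), 3 of 5 for T and NK cells (Cd3d, Lck and Nkg7), 1 of 2 for B cells (Pax5), 1 of 4 for neutrophils (Camp) and 1 of 2 for erythroid cells (Hba-a1), and their part in the results was not tested. In such bulk RNA, fewer cells of a type and less RNA per cell cannot be told apart.

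Every tier of the cascade was represented among the detected genes. On all 4 arrays 26 of the 43 measured members were detected (60.5%), beside 44.4% of all measured genes. A further 5 members were detected on 1 to 3 arrays (9.43% of all genes) and 12 on none (46.1% of all genes). By tier, 4 of 4 MAP4 kinases, 7 of 14 MAP3 kinases, 5 of 7 MAP2 kinases, 6 of 13 MAP kinases, 3 of 3 MAPKAP kinases and 1 of 2 interacting proteins were detected on all 4 arrays. These counts describe the list and carry no test. With the software's looser mark of a positive and significant signal 35 members counted (81.4%, beside 55.7% of all measured genes), and with every probe of a gene required 20 did (46.5%, beside 38.6%).

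**Figure D1:**
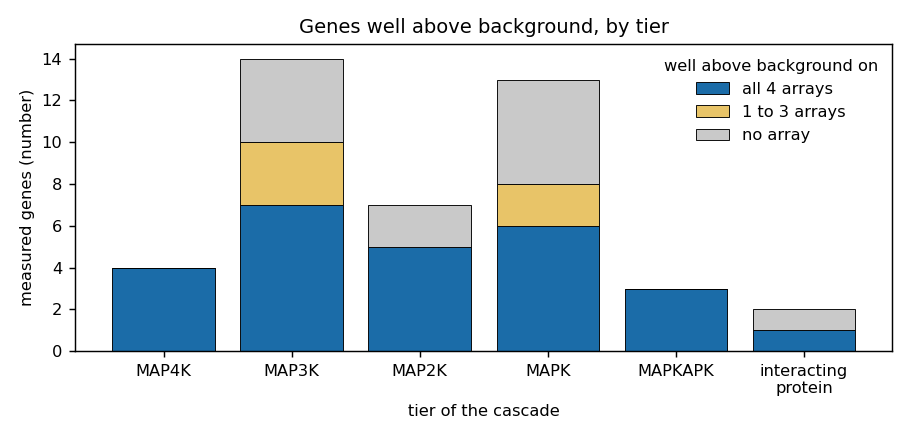
Number of measured genes in each tier of the cascade, split by whether they were well above background on all 4 arrays, on 1 to 3 arrays or on none. All 4 MAP4 kinases and all 3 MAPKAP kinases are in the first class, while 4 of 14 MAP3 kinases and 5 of 13 MAP kinases were detected on no array.

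For each of the main branches at least 1 MAP kinase or its activator was detected, often with related genes missing. In the ERK branch both MAP2 kinase genes, Map2k1 and Map2k2, and the kinase gene Mapk3 (ERK1) were detected on all 4 arrays. In the p38 branch the activator gene Map2k3 and the p38 alpha gene Mapk14 were detected on all 4 arrays, whereas the second activator gene Map2k6 and the p38 beta and gamma genes Mapk11 and Mapk12 were detected on none. The p38 delta gene Mapk13 read -2.18, -2.18, -1.35 and -1.34 and was well above background on replicates 1 to 3. In the JNK branch Map2k4 and the JNK2 gene Mapk9 were detected on all 4 arrays, and Map2k7 and the JNK3 gene Mapk10 on none. The JNK1 gene Mapk8 read -1.37, -1.40, -1.80 and -2.28 and was detected on replicates 1 to 3 by 1 of its 3 probes. In the ERK5 branch Map3k3, Map2k5 and Mapk7 (ERK5) were detected on all 4 arrays, and Map3k2 on 3.

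The 12 members detected on no array read between -4.74 and -2.69 on replicate 1 and between -3.52 and -2.06 on replicate 4. The lowest level of any probe well above background was -2.56, -2.41, -2.09 and -1.24 on replicates 1 to 4, so a dim gene had to stand higher on replicate 4 to be called. Besides those named, the group holds the MAP3 kinase genes Map3k5 (ASK1, a sensor of oxidative stress), Map3k13, Map3k14 (NIK, of the alternative NF-kB pathway) and Map3k21, the atypical kinase genes Mapk4 (ERK4) and Mapk15, and the JNK scaffold gene Mapk8ip1. Of the members missed on some arrays, each was missed on replicate 4. Map3k1 (MEKK1) read -1.94, -3.11, -1.97 and -1.77 and was also missed on replicate 2, where it was lowest. Map3k4 (MEKK4) read -1.17, -1.18, -2.14 and -2.81, highest on the arrays where it was detected, replicates 1 and 2. Map3k2 (MEKK2) read -1.98, -2.04, -0.91 and -2.49. Without replicate 4, 29 members (67.4%) passed on every array left, as did 47.7% of measured genes. A gene not called here may still have been transcribed.

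Among the MAP4 kinases, which sit at the top of the stress-activated branches, the SD over the 4 arrays lay between 0.12 and 0.26, beside a median of 0.25 over all detected genes, and with spike-in scaling between 0.40 and 0.79, beside 0.59. Map4k4 (HGK) read 2.35, 2.61, 2.58 and 2.57, a mean of 2.53 ± 0.12, with replicate 1 below the other arrays. Map4k3 (GLK) read 2.43, 2.51, 2.35 and 2.18 (2.37 ± 0.14). The highest array stood 1.19-fold above the lowest for Map4k4 and 1.25-fold for Map4k3. Map4k1 (HPK1, a kinase of blood cells) read 1.06, 0.95, 1.30 and 1.53 (1.21 ± 0.26). Map4k5 read -0.93, -0.58, -0.49 and -0.38 by its brightest probe (-0.59 ± 0.24), lowest on replicate 1. With spike-in scaling replicate 4 was instead the lowest array of both Map4k4 (-0.81 against its own mean) and Map4k5 (-0.63).

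The MAP3 kinases include the member with the largest SD on the 75th percentile scale, Map3k9, while their median SD of 0.34 lay below the 0.38 of the MAP2 kinases. Map3k9 (MLK1), a mixed-lineage kinase that activates the JNK branch, read -1.03, -1.07, -0.06 and 0.22 (-0.48 ± 0.67). Its relative Map3k11 (MLK3) read 0.76, 0.42, 1.53 and 1.78 (1.12 ± 0.64). On the 75th percentile scale both genes lay above their own mean on replicates 3 and 4. Of all detected genes 61.9% did so on replicate 3 and 59.6% on replicate 4. How many did so on both arrays was not counted. With spike-in scaling replicate 4 was the lowest array in both, at -0.14 for Map3k9 and -0.19 for Map3k11 against their own means. Map3k6 (ASK2), a partner of ASK1, read 1.25, 1.21, 2.18 and 2.18 (1.70 ± 0.55), and Map3k3 (MEKK3) read 1.60, 1.54, 2.09 and 2.20 (1.86 ± 0.34). Map3k12 (DLK) read -1.56, -1.37, -0.90 and -0.93 (-1.19 ± 0.33). Replicates 3 and 4 were instead the low arrays in Map3k8 (TPL2), which carries signals from Toll-like receptors to ERK in macrophages: it read 2.86, 2.92, 2.51 and 2.22 (2.63 ± 0.33). Map3k7 (TAK1), which acts below receptors of the interleukin-1, Toll-like and TNF families, read 0.89, 0.74, 0.66 and 0.38 (0.67 ± 0.21).

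Of the MAP2 kinases, Map2k1 (MEK1) read 4.10, 4.28, 4.35 and 4.05 (4.20 ± 0.14), and Map2k2 (MEK2), which also activates ERK, read 4.10, 3.96, 4.65 and 4.92 (4.41 ± 0.45). Map2k3, an activator of p38, read 5.05, 5.02, 5.63 and 5.74 (5.36 ± 0.38). Map2k4, an activator of JNK, read 1.18, 0.94, 0.29 and 0.05 (0.61 ± 0.53), with replicates 3 and 4 the low arrays where Map2k3 had them high. Map2k5, the activator of ERK5, read -0.82, -0.59, -0.44 and -0.48 (-0.58 ± 0.17).

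Among the MAP kinases, Mapk9 (JNK2) had the smallest spread of all detected members on the 75th percentile scale, though with spike-in scaling its SD was 0.67. It read 2.17, 2.34, 2.26 and 2.23 (2.25 ± 0.07), a range of 1.13-fold. An SD under 0.1 was found in 2 of the 26 members and in 13.2% of all detected genes. Mapk3 (ERK1) read 8.29, 8.14, 8.79 and 8.96 (8.54 ± 0.39), and on the linear scale its processed signal was 40132, 36833, 43547 and 24338. Mapk14 (p38 alpha) read 4.49, 4.50, 4.84 and 4.93 (4.69 ± 0.23). Mapk7 (ERK5) read 0.09, -0.03, 0.81 and 0.94 (0.46 ± 0.49). The atypical kinase gene Mapk6 (ERK3) read 1.73, 1.69, 1.23 and 1.26 (1.48 ± 0.27), with replicates 3 and 4 the lower arrays.

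The MAPKAP kinases act below p38. Mapkapk2 (MK2), which controls the stability of TNF mRNA through RNA-binding proteins, read 5.19, 5.10, 6.04 and 6.32 (5.66 ± 0.61), a range of 2.34-fold. Mapkapk3 (MK3), its close relative, read 6.40, 6.33, 6.85 and 7.08 (6.66 ± 0.36), and Mapkapk5 (PRAK) read 1.77, 1.83, 2.03 and 2.11 (1.94 ± 0.16). In these values all 3 lay below their own mean on replicates 1 and 2 and above it on replicates 3 and 4. So did Mapk8ip3 (JIP3), a scaffold that gathers the kinases of the JNK branch, at 1.36, 1.33, 2.02 and 2.30 (1.76 ± 0.48). Of all detected genes 38.7%, 41.9%, 61.9% and 59.6% lay above their own mean on replicates 1 to 4. With spike-in scaling each lay below its own mean on replicate 4, at -0.19 (Mapkapk2), -0.43 (Mapkapk3), -0.67 (Mapkapk5) and -0.30 (Mapk8ip3). On replicate 2 each of these genes then lay above it, at 0.006, 0.23, 0.47 and 0.15.

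**Figure D2:**
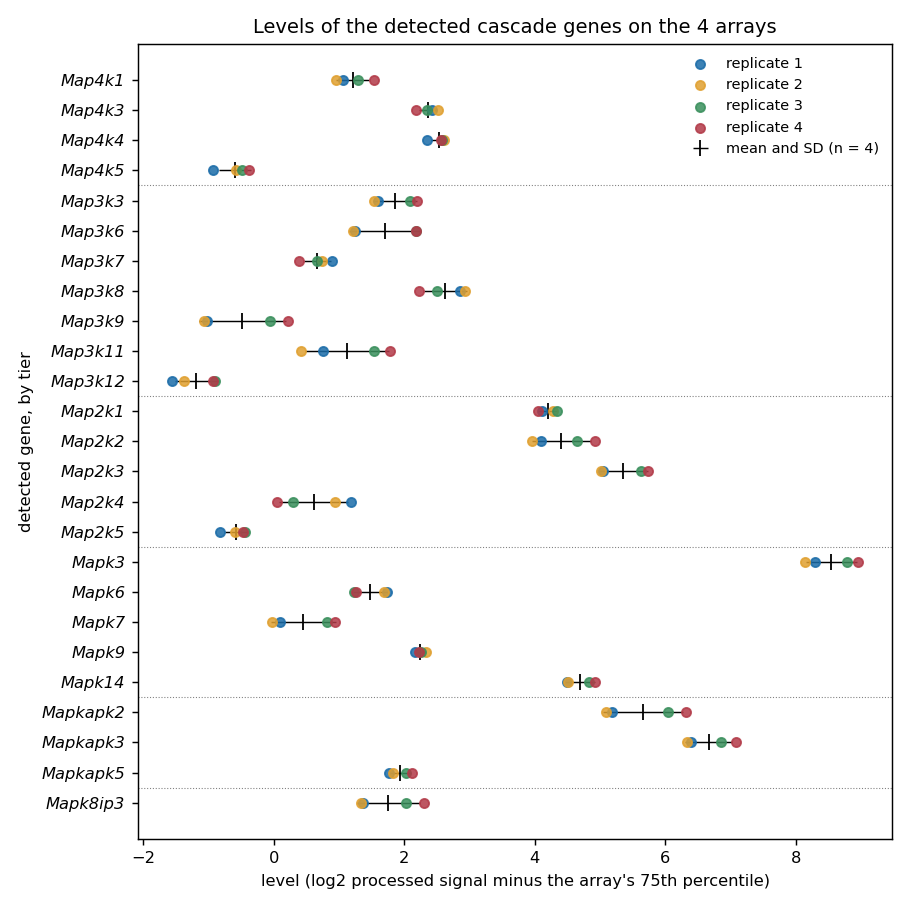
Level of 25 of the 26 detected genes on each array (points, log2 processed signal minus the 75th percentile of the array), with the mean and SD over the 4 arrays (bar), grouped by tier. The points of Mapk9 nearly coincide, those of Map3k9, Map3k11 and Mapkapk2 spread over more than 1 log2 unit, and levels of different genes are not comparable.

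Sequence before the gene starts was compared for members chosen by their level on replicate 4 relative to their own mean, or by a small SD. RefSeq's GRCr8 promoter table had 36 of the 43 members, 21 of them detected (no entry for Map4k4, Mapk3, Mapk8ip1, Mapk9, Mapk15 and Mapkapk5, among others). Shown are the 250 bases before the start of the 2 detected members lowest on replicate 4 relative to their mean (Map2k4 and Map3k8), the 2 highest there (Map3k9 and Mapkapk2) and the member with the smallest SD among those with an entry (Map4k3), 5′ to 3′ on the gene's strand. Capitals mark matches, on either strand, to 8 motifs: the GC box GGGCGG, the CCAAT box CCAAT, the TATA box TATAAA, the AP-1 site TGACTCA, the cAMP response element TGACGTCA, the ETS site CCGGAAGT, the EGR site GCGNGGGCG and the NF-kB site.
Map2k4 (chr10:50947040-50947289, minus strand): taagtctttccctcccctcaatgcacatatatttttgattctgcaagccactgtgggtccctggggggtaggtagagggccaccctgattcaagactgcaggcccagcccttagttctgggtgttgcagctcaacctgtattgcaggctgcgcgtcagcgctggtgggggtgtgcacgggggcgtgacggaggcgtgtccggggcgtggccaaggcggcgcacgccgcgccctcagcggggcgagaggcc
Map3k8 (chr17:58077925-58078174, plus strand): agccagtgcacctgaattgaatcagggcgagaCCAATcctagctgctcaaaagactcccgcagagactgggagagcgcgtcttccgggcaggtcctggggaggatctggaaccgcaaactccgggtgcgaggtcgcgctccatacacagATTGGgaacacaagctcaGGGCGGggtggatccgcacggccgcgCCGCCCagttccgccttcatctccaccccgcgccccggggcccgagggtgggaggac
Map3k9 (chr6:107220062-107220311, minus strand): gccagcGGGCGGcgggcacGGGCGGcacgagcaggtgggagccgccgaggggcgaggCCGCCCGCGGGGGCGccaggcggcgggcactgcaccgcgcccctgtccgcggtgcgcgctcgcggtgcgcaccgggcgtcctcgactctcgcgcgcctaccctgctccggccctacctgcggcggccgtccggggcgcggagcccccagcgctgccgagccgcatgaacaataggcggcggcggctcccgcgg
Mapkapk2 (chr13:45112327-45112576, minus strand): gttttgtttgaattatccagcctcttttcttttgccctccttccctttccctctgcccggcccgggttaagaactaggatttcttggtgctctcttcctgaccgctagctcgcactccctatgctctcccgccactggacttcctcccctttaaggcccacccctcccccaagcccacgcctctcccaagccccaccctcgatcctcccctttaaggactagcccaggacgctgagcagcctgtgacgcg
Map4k3 (chr6:20029147-20029396, plus strand): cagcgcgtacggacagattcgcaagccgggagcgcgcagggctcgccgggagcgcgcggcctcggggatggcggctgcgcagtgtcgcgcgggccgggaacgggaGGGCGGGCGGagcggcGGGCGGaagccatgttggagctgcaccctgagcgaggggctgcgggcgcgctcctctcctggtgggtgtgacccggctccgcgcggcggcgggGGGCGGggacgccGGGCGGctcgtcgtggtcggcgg

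The window of Map4k3 held 5 GC boxes, a pair of which overlaps, and that of Map3k9 held 3 GC boxes and 1 EGR site. Map3k8 had 2 GC boxes and 2 CCAAT boxes. Map2k4 and Mapkapk2 held none of the letters searched. Map2k4 was chosen as low and Mapkapk2 as high on replicate 4, a choice that depended on the scaling. With spike-in scaling Mapkapk2 (-0.19) and Map3k9 (-0.14) also lay below their own mean on replicate 4. Map4k3, chosen for its small SD, had an SD of 0.79 with that scaling. Over the detected members with an entry, 17 of 21 (81.0%) held a GC box, beside 59.1% of the detected genes with an entry and 30.5% of all 33469 promoters. A CCAAT box stood in 6 of 21 (28.6%), beside 37.5% of detected genes and 34.0% of all promoters. An NF-kB site stood in 3 (14.3%), namely Map2k1, Map3k11 and Map4k1, beside 8.1% of detected genes and 6.3% of all promoters. An ETS site stood in 2 (9.5%), Map3k6 and Mapk8ip3, beside 8.5% and 3.1%, and an EGR site in 1 (4.8%), Map3k9, beside 7.8% and 4.3%. Found in 0 of the 21 were TATA boxes (6.6% of detected genes, 12.9% of all promoters), AP-1 sites (3.2% and 4.0%) and cAMP response elements (3.2% and 1.6%). The share of G and C ranged from 57.6% (Map4k1) to 82.0% (Map3k9) with a median of 64.8%, beside 60.0% for 6188 detected genes. A match describes letters and no bound factor, and a missing one says only that these letters are not in this window.

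Most detected members read below their own mean on replicates 1 and 2 but above it on replicates 3 and 4, a direction that turned on every array with spike-in scaling and on replicate 4 with normexp background correction. The median shift of the 26 members was -0.24, -0.18, 0.15 and 0.25 log2 units on replicates 1 to 4. Over all 7366 detected genes it was -0.07, -0.07, 0.06 and 0.10, so the medians of the members had the same signs and were larger. Above their own mean were 6, 10, 21 and 18 of the 26 members, beside 38.7%, 41.9%, 61.9% and 59.6% of all detected genes. The highest array was replicate 1 for 3 members (10.6% of all detected genes), replicate 2 for 5 (26.4%), replicate 3 for 3 (16.5%) and replicate 4 for 15 (46.4%). The lowest was replicate 1 for 7 members (22.0% of all detected genes), replicate 2 for 12 (35.3%), replicate 3 for 1 (13.1%) and replicate 4 for 6 (29.6%). With spike-in scaling the members' shifts were 0.21, 0.39, -0.022 and -0.60 and those of all detected genes 0.38, 0.51, -0.11 and -0.75. The difference from all detected genes was -0.17, -0.12, 0.09 and 0.15. It is the same under both scalings by construction, since each subtracts 1 constant per array. With normexp correction the members shifted by -0.08, -0.05, 0.20 and -0.032 and all detected genes by 0.01, 0.05, 0.09 and -0.13. Under normexp the difference was -0.09, -0.10, 0.12 and 0.10. Without the area of low signal, the shift on replicate 3 was 0.10 for the members and 0.01 for all detected genes. Without replicate 1 the members' shift was 0.09 on replicate 3 and 0.16 on replicate 4, and without replicate 4 it was -0.14 on replicate 1. The 4 shifts of a gene sum to 0, each array is 1 culture, and no test was made. Replicate 4, with the largest shift, was also the dimmest array, and the part of array signal in the shifts was not tested.

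**Figure D3:**
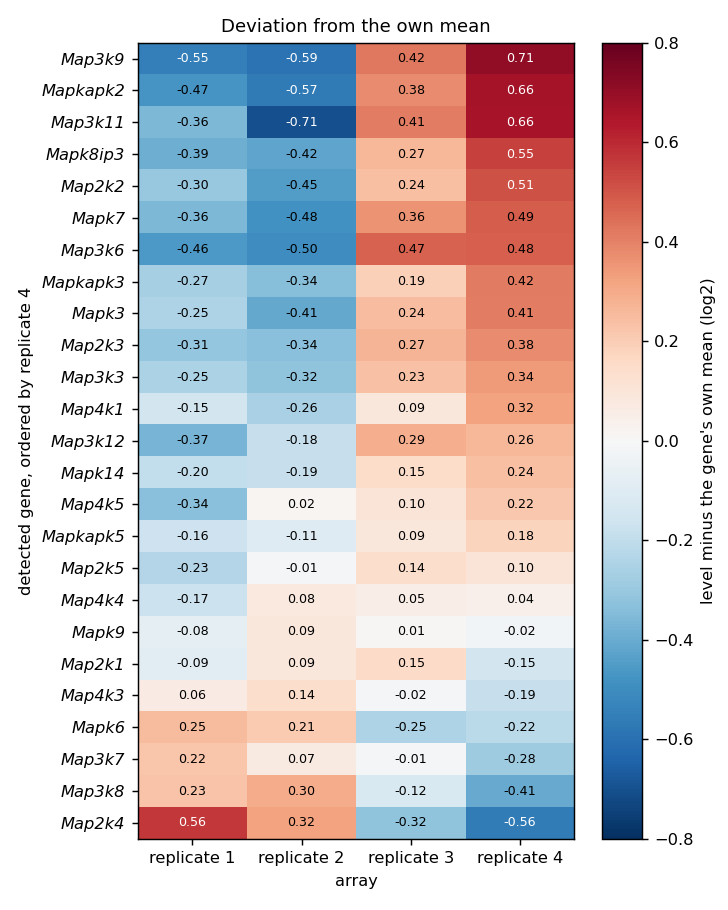
Level minus the gene's own mean (log2, colour and printed value) for 25 of the 26 detected genes on the 4 arrays, ordered by replicate 4. Map3k9 (0.71) and Mapkapk2 (0.66) are highest there and Map2k4 (-0.56) lowest; the values hold for 75th percentile scaling, and with spike-in scaling 0 of 26 genes lay above their mean on replicate 4.

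Differences between related members on the same array are the same under any scaling that subtracts 1 constant per array, such as the 75th percentile or the spike-in signal, but not under quantile normalization or normexp. These pairs were chosen after the values were seen, and each gene's own mean was subtracted first. Map2k2 minus Map2k1, the activators of ERK, was -0.21, -0.54, 0.09 and 0.66 on replicates 1 to 4, a range of 1.20 log2 units (1.27 with normexp correction). The widest of these chosen pairs was Map2k3 minus Map2k4, the activators of p38 and JNK, at -0.87, -0.66, 0.59 and 0.94. Its range was 1.81 (0.95 with normexp, 1.61 with quantile normalization). By contrast Map3k9 minus Map3k11 stayed within a range of 0.30, at -0.18, 0.12, 0.01 and 0.05, Mapkapk2 minus Mapkapk3 within 0.47 and Mapk14 minus Mapk9 within 0.54.

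The spread between cultures was wide in some members and small in others. The median SD of the 26 members was 0.33, beside 0.25 over all detected genes, an order that turned with spike-in scaling, to 0.43 for the members and 0.59 for all detected genes. An SD above 0.5 was found in 5 members, Map3k9, Map3k11, Mapkapk2, Map3k6 and Map2k4, and in 11.6% of all detected genes. The values of 4 members, the same without Map3k6, ranged over more than 1 log2 unit, as did those of 13.9% of all detected genes. With spike-in scaling the order of the members changed: Map2k4 had an SD of 1.16, Map3k8 of 0.98 and Mapk6 of 0.90, while Mapkapk2 (0.16), Map3k9 (0.18) and Map3k11 (0.20) were the steadiest. Under normexp Mapk3 (0.08) and Map2k5 (0.09) were the steadiest and Map3k8 (0.46) and Map3k11 (0.45) the widest. Which members were the steadiest thus differed between these settings.

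**Figure D4:**
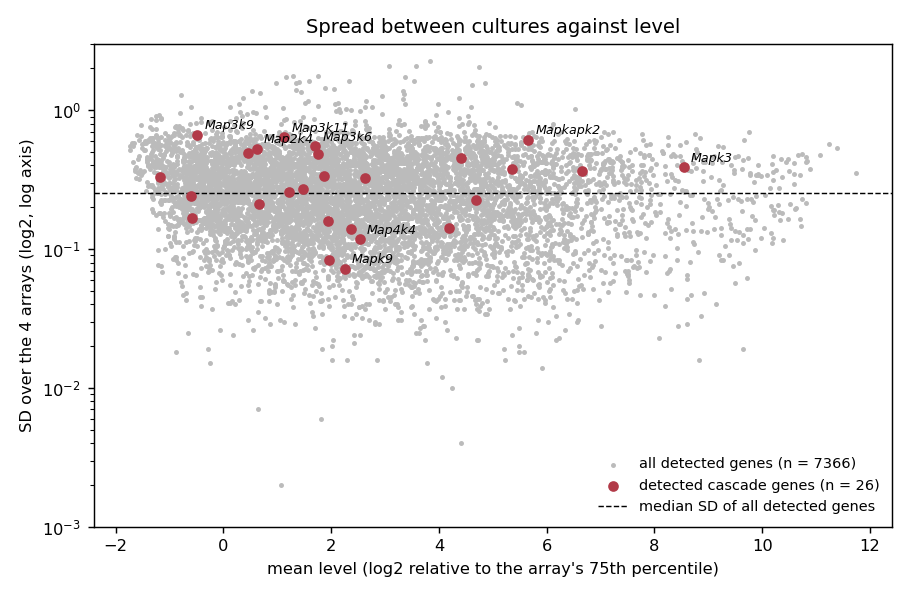
SD over the 4 arrays (log axis) against mean level for the 7366 detected genes (grey) and the 26 detected cascade genes (red), with the median SD of all detected genes as a dashed line. The cascade genes run from 0.07 (Mapk9) to 0.67 (Map3k9), and 16 of 26 lie above the line; with spike-in scaling the median SD of the cascade genes, 0.43, was instead below that of all detected genes, 0.59.

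Repeated spots of 1 probe give the noise between spots of an array, without that of labelling, hybridization or scaling, so they do not measure how far cultures differed. Spots marked as outliers were left out first, which can lower these SDs. Mapk8ip3, with 8, 10, 7 and 10 of its 10 spots used, had a spot SD of 0.06, 0.06, 0.07 and 0.10 on replicates 1 to 4. Its SD between arrays was 0.48 (0.21 with spike-in scaling). Mapk14, with 9 or 10 of its 10 spots used, had spot SDs of 0.05 to 0.08 beside 0.23 between arrays (0.44 with spike-in scaling). For Mapkapk2, with 2 spots, they were at most 0.07 beside 0.61 between arrays (0.16 with spike-in scaling).

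Of the 43 members 11 had several probes, and for some these disagreed. All 3 probes of Map3k9 followed 1 course: the other 2 read -2.14, -2.28, -0.93 and -0.55, and -2.16, -2.40, -1.13 and -0.69. The second probe of Map2k3 read -0.26, -0.44, 0.35 and 0.35 against its own mean, again with replicates 3 and 4 high. The 2 probes of Map2k1 had SDs of 0.14 and 0.17. In Map3k12 the second probe read -1.47, -1.33, -1.70 and -1.62, with replicates 3 and 4 low where the brightest probe had them high, and it was well above background on 2 arrays. Map4k5 behaved alike, its second probe reading -1.55, -1.46, -2.14 and -2.11, detected on 2 arrays. The second probe of Map3k7 read -1.83, -1.57, -1.67 and -3.47, detected on 3 arrays. Its SD was 0.90, beside 0.21 for the brightest probe. The values of Map3k7, Map3k12 and Map4k5 across arrays therefore rest on the probe used. The dimmest probe of Mapk9 and the dimmer one of Mapk8ip3 were detected on no array.

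**Figure D5:**
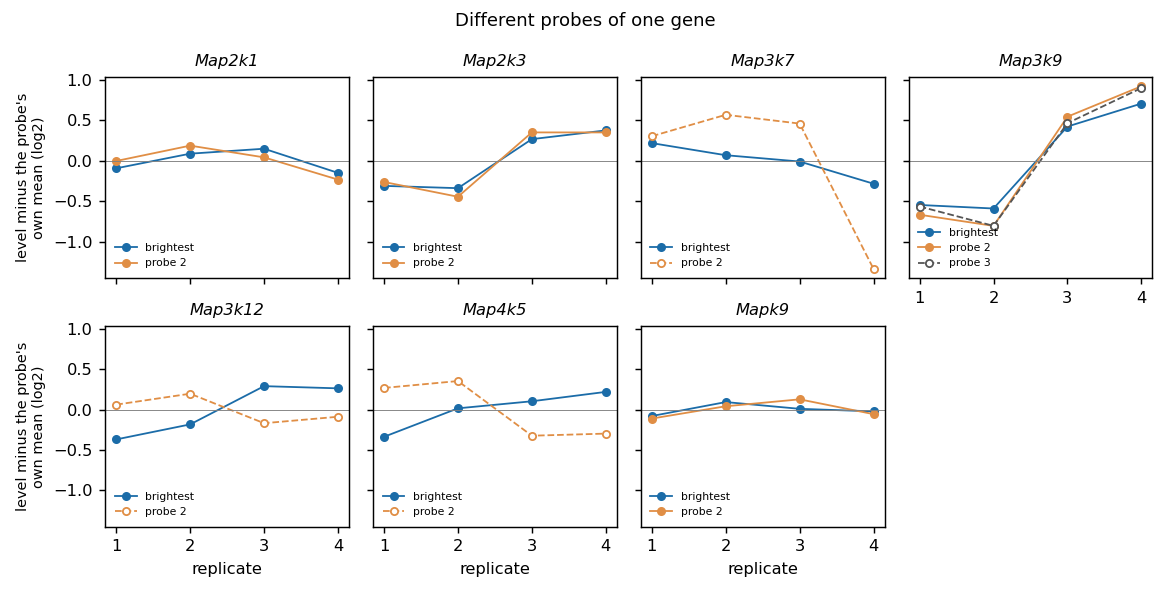
Level minus the probe's own mean (log2) on replicates 1 to 4 for 7 genes with several probes detected on at least 1 array; filled points and solid lines mark probes detected on all 4 arrays, and lines join the points of 1 probe without implying an order. Probes of Map2k1, Map2k3, Map3k9 and Mapk9 run together, and those of Map3k12 and Map4k5 run opposite ways.

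Other genes of the pathway were described in 7 short lists, beside 44.4% of all measured genes detected on all 4 arrays. The share detected was 20.0% for the inhibitors of Ras and Raf, the smallest. For the other lists it lay between 50.0% (MAP kinase phosphatases) and 80.0% (scaffolds and adaptors). Of Ras proteins, their activators and adaptors, 12 of 18 measured genes were detected on all 4 arrays, such as Grb2, the adaptor of receptor tyrosine kinases (5.69 ± 0.19), Hras (4.49 ± 0.18), the exchange factor gene Sos2 (1.95 ± 0.06) and Shc1 (2.76 ± 0.49). Of genes that restrain Ras and Raf, 2 of 10 were, Pebp1 (7.20 ± 0.37) and Rasa1 (0.10 ± 0.17), while Spry2, Spry4 and Nf1 were detected on none. A further 3 genes of this list were detected on 3 of the 4 arrays. Kinases of the upper tiers with other names were detected in 7 of 11 cases, among them Araf (1.86 ± 0.32), Mink1 (3.49 ± 0.52), Pak2 (-0.94 ± 0.08) and Taok3 (2.29 ± 0.68). Taok3 read 1.70, 1.70, 2.76 and 2.99, highest on replicates 3 and 4. Scaffolds and adaptors were detected in 12 of 15 cases, from Iqgap1 (4.46 ± 0.04) and the arrestin genes Arrb1 (0.85 ± 0.04) and Arrb2 (3.12 ± 0.43) to Lamtor3, a scaffold of MEK1 (3.15 ± 0.57), whose brightest probe lay in the low area of replicate 3.

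Effector kinases below ERK and p38 were detected in 5 of 7 cases, with the ribosomal S6 kinase genes Rps6ka1 (5.83 ± 0.47) and Rps6ka3 (-0.54 ± 0.26) and the kinase genes Mknk1 (1.90 ± 0.13) and Mknk2 (5.90 ± 0.63), which act on a translation initiation factor. Mknk2 read 5.36, 5.38, 6.23 and 6.62, with replicates 3 and 4 the high arrays. Nuclear and RNA-binding targets were detected in 13 of 17 cases, among them Jund (6.12 ± 0.80), Creb1 (1.03 ± 0.22), Zfp36l1 (1.42 ± 0.13) and Atf2, which read -0.86, -0.82, -1.56 and -0.76. Zfp36, which encodes tristetraprolin, an RNA-binding target of MK2, was detected on no array. Of the MAP kinase phosphatases 5 of 10 were detected, Dusp1 (-0.87 ± 0.47), Dusp2 (1.82 ± 0.46), Dusp5 (1.82 ± 0.48), Dusp6 (3.21 ± 0.32, with its brightest probe in the low area of replicate 3) and Dusp16 (0.56 ± 0.17). Their median SD was 0.46 and their median shifts -0.37, -0.28, 0.27 and 0.45, with the signs of the members' shifts, while with spike-in scaling they were 0.08, 0.29, 0.10 and -0.39 and with normexp -0.22, -0.19, 0.23 and 0.14. On the 75th percentile scale the effector kinases shifted by -0.25, -0.41, 0.20 and 0.37 and the nuclear and RNA-binding targets by -0.25, -0.10, 0.14 and 0.26. The other lists lay nearer 0 on replicate 4, with Ras genes at -0.06, -0.07, 0.11 and 0.05, their inhibitors at -0.16, -0.07, 0.11 and 0.12, upper-tier kinases at -0.11, 0.03, 0.10 and 0.08 and scaffolds at -0.06, -0.09, 0.04 and 0.07. With spike-in scaling all 7 lists were above 0 on replicates 1 and 2 and below 0 on replicate 4. The lists were compared by these counts and medians only, and the 50.0% of phosphatases detected lay near the 44.4% of all measured genes.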

How the data were processed

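Arrays of 4 exposed cultures were analysed, each with Cy3-labelled cRNA from 100 ng of RNA. The authors deposited 1 intensity per spot on a linear scale, which per the file headers was corrected for background and spatial trend within its array, with no normalization between arrays. The software was Agilent Feature Extraction 11.0.1.1, per the submitters' processing notes. The 0 or 1 marks for background and outliers are the deposited scanner marks, of unit other. Outlier spots were left out, log2 was taken, spots of a probe were averaged, and the 75th percentile over 45598 sample probes was subtracted. Probe accessions were matched to a RefSeq table of GRCr8 (21109 matched, 24489 unnamed), while the headers name an older build. A gene with several probes took its brightest. The raw spot and background medians served normexp (offset 50), because a mean signal column was not used here. Every member with a matched probe is named except 1, which is not reported here; of each other list, those with the largest and smallest SD and 2 more in alphabetical order. Dusp6, Spry2, Spry4, Nf1 and Zfp36 were added after their values were seen. Members and lists were chosen with earlier results of these data known. No test between groups was made, with 1 group; single arrays that stand apart were sought with Dixon's criterion (critical value 0.829). Precision is limited by the number of arrays. The computing of SDs and shifts from levels was tested on simulated levels with 1 probe per gene. That simulation set detection itself and did not cover scaling, averaging of spots, outlier spots or the choice of probe. The area of low signal on replicate 3 holds spots whose local median difference from the other arrays, over 15 rows by 11 columns, was under -0.5 log2 units. Python 3.11.15 with numpy 2.4.6, pandas 2.3.3 and scipy 1.17.1 and R 4.3.3 with limma 3.58.1 were used. Alternatives changed detection, background correction, scaling, the probe rule, outlier spots, the low area and the replicates.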

Additional observations from a re-analysis of the deposited data

Results flagged for a closer look

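In 57 genes of the cascade and the other lists, 31 of them members, the highest or lowest array was set against the other 3 by Dixon's criterion, which chance alone meets in about 1 of 20 groups of 4. It was met by 3 genes, which is near the number that this rate gives for 57 genes. The share over all detected genes is not given. Map4k4 read 2.35 on replicate 1, below 2.61, 2.58 and 2.57 on the others. With spike-in scaling it lay at 0.27 on replicate 1 and -0.81 on replicate 4 against its own mean, so replicate 1 was not its lowest array. Map3k1 read -3.11 on replicate 2, where it was not well above background, against -1.94, -1.97 and -1.77. Atf2 read -1.56 on replicate 3, against -0.86, -0.82 and -0.76.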

How the results depend on the processing

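The number of members detected on all arrays was 26 and lay between 20 and 35 over all alternatives, and between 26 and 29 when a replicate was left out. The median SD of 0.33 (all detected genes 0.25) became 0.43 with spike-in scaling (0.59), the 1 setting where it lay below that of all detected genes, 0.38 with detection by positive and significant signal (0.29), 0.29 with the 75th percentile over detected probes (0.25), 0.26 with quantile normalization (0.24) and 0.25 with normexp (0.23), and lay between 0.29 (without replicate 4) and 0.34 (without replicate 3) when a replicate was left out. Median shifts turned sign with spike-in scaling, to 0.21, 0.39, -0.022 and -0.60 on replicates 1 to 4, and with normexp on replicate 4, to -0.032. Leaving out replicates gave shifts of -0.30 to -0.14 on replicate 1, -0.28 to -0.11 on replicate 2, 0.09 to 0.23 on replicate 3 and 0.16 to 0.32 on replicate 4. Mean levels of the 26 genes moved by more than their SD in 26 cases with spike-in scaling, 26 with the percentile over detected probes, which change every level alike, 19 with normexp and 8 with the mean of all probes, and in 0 cases under the other settings run. The use of the spot median in the normexp setting was chosen after seeing the data. No paired analysis was possible because there is 1 group. Low signal on replicate 4 limits which dim genes could be detected there.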
